A study of Mus musculus with 8 samples.

Results

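The genes described here encode the receptors and bridging proteins with which macrophages recognise and take up dying cells. The set holds 10 genes chosen by name, Mertk, Axl, Tyro3, Gas6, Pros1, Mfge8, Timd4, Lrp1, Itgav and Itgb5, and they were found by their symbols among the non-control spots of the arrays. They carried 19 probes, and 9 of them were among the 18603 genes tested. The tenth, Mertk, was well above background on too few arrays for the test and is given by its values.

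A dying cell turns phosphatidylserine to its outer surface, where phagocytes read it as an eat-me signal. Timd4 (TIM-4) binds the lipid directly. Gas6 and protein S (Pros1) bind it and bridge the corpse to receptor tyrosine kinases, Gas6 to Tyro3, Axl and Mertk and protein S to Tyro3 and Mertk. Mfge8 bridges the corpse to the integrins that Itgav forms with Itgb5 or Itgb3. Lrp1 is an endocytic receptor that takes part in uptake of cells carrying surface calreticulin. In the mouse peritoneal cavity Timd4 and Mertk are known as genes of resident macrophages.

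RNA of peritoneal macrophages was hybridised to 8 one-colour arrays, 4 for mice labelled wt and 4 for Card9-/- mice, and every mouse had been given zymosan, a yeast cell wall preparation, at 500 mg/kg for 4 h. Per the labels, the cells were elicited with 1 ml of 3% thioglycolate, collected 4 days later and kept if they adhered within 3 h. Pellets came from 4 or 5 mice per group, and whether 1 mouse or a pool stands behind an array is not stated, nor are age, strain and sex. The p-values thus reflect the spread among these arrays alone, which may be technical, and mice without zymosan are not analysed here. CARD9 is the adaptor protein that carries signals from fungal recognition receptors such as Dectin-1. A level is the log2 of the spot's processed signal minus the 75th percentile of its array, so that 0 marks that percentile, and levels of different probes are not comparable with each other.

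Card9 itself lay at -6.21 in the library labelled wt 1, -3.66 in wt 2, 1.48 in wt 3 and -0.67 in wt 4, and at -5.93, -5.48, -4.77 and -5.43 in Card9-/- replicates 1 to 4. It exceeded background clearly on 3 of 4 wt arrays and on 0 of 4 Card9-/- arrays. Its mean was at least 2.78-fold lower in Card9-/-, with the wt 1 reading taken as it stood (limma adjusted p = 0.689). A second Card9 probe was well above background on wt 2 and wt 3 alone and gave a difference of -1.55. On that probe wt 4 lay at -4.44 and Card9-/- replicate 4 at -3.40, neither well above background. The library labelled wt 1 did not carry a measurable Card9 signal on either probe, so Card9 does not bear out its label. The Y-linked Eif2s3y, Ddx3y and Uty averaged -6.68, -6.71 and -6.23 over the wt arrays, wt 1 included, against 1.14, -0.54 and 0.94 in Card9-/-. Over all genes tested wt 1 was most like wt 2, with an SD of their difference of 0.526. The wt 1 mean over 10 macrophage markers, 0.45, was the lowest of all arrays. Whether the label or the low macrophage signal lies behind the Card9 reading was not tested. The labels do not say which part of the gene was deleted. Of the 5 genes past an adjusted p of 0.05, 3 were the Y-linked Eif2s3y, Ddx3y and Uty, all higher in Card9-/-, and XIST was lower, so that genotype and the sex of the mice cannot be told apart. Slide 1 held the 4 wt arrays together with Card9-/- replicate 4, the other Card9-/- arrays lay on other slides, and between 47.8% and 56.5% of spots were well above background.

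Timd4 had the widest spread among the wt arrays, Mertk was measurable on 2 wt arrays alone, and Tyro3 was the gene whose groups did not overlap, so the sequences of these 3 are shown. The lines give the first 30 of the 60 bases of the probe behind each level. The Timd4 probe lies on chromosome 11 at 46657173 to 46657232, the Mertk probe on chromosome 2 at 128627867 to 128627926 and the Tyro3 probe on chromosome 2 at 119643759 to 119643818, on build mm9 as the files give it, all within RefSeq transcripts of the plus strand.
Timd4 probe: acttcttttcacattcaagtttctttaaag
Mertk probe: agcaccaggtgaaagctgtcaagtcaggtt
Tyro3 probe: gcaggctcttgctgttaggaacatttctaa

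The 250 bases before the start site of the same genes, from RefSeq on GRCm38.p6, follow with motif matches in capitals. Each motif was searched on both strands and is spelled out below the lines.
Timd4 promoter, chr11:46810549-46810798, + strand: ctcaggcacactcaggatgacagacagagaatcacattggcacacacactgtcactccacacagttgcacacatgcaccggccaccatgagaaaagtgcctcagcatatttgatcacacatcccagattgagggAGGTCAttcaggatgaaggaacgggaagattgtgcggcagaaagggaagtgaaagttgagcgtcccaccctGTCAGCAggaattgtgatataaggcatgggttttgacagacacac
Mertk promoter, chr2:128698665-128698914, + strand: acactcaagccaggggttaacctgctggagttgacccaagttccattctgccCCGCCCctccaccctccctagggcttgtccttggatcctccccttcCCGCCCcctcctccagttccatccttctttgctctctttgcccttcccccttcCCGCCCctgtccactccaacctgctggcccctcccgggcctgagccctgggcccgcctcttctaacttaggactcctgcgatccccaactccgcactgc
Tyro3 promoter, chr2:119799264-119799513, + strand: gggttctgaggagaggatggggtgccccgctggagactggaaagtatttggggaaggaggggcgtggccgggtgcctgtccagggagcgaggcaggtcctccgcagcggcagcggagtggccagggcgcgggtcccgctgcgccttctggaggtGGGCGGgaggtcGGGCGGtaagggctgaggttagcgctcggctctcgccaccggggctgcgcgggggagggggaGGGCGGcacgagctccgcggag
In the Timd4 promoter the first run of capitals marks a nuclear receptor half-site, spelled AGGTCA, which started at -116 and which 14.0% of all 32851 promoters hold. The second run marks a MAF half-site on the opposite strand, spelled TGCTGAC on its own strand, which started at -45 and which 3.81% of all promoters hold. Neither motif was found in the other 9 promoters. The capitals in the Mertk and Tyro3 promoters mark GC boxes, spelled GGGCGG, with 3 in each. This motif was present in 8 of the 10 promoters, those of Timd4 and Itgav being the exceptions, against 32.7% of all promoters. An ETS motif, spelled GAGGAA, was found for Axl, Mfge8 and Itgav, 3 of the 10, against 23.3% of all promoters. The motif bound by zinc finger factors such as Gata6, spelled AGATAA, was present in 0 of the 10, against 9.99% of all promoters. The promoter core motif spelled TATAAA was likewise present in 0 of the 10, against 12.4%. The number of CpG sites was 24 for Tyro3, 7 for Mertk and 4 for Timd4, against a median of 6 over all promoters. These matches describe the letters only.

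The comparison of Card9-/- with wt asked how loss of the adaptor altered the zymosan-exposed macrophages, here for the clearance genes. None of the 9 tested genes passed an adjusted p of 0.05 (limma, Benjamini-Hochberg over all 18603 genes, of which 0.0269% passed), and 1 of 9, Tyro3, had an unadjusted p below 0.05 (7.22% of all genes). That count was 0 of 9 with median scaling, quantile normalization or slide as a block, and 0 of 8 in the series matrix, where Axl was not tested (limma). With normexp background correction it was 2 of 9, Axl and Tyro3 (limma). Of the 9 genes, 7 were lower and 2 higher in Card9-/- by their means, with a median log2 difference of -0.61, while 43.7% of all genes were higher and their median was -0.09. The wt arrays spread more widely than the Card9-/- arrays in 8 of the 9 tested genes, as in 53.9% of all genes. The median SD of the 9 genes was 1.86 over the wt arrays and 0.72 over the Card9-/- arrays, against 0.68 and 0.59 over all genes. In RNA from a whole cell preparation, fewer cells of a type and less RNA per cell cannot be told apart.

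**Figure D1:**
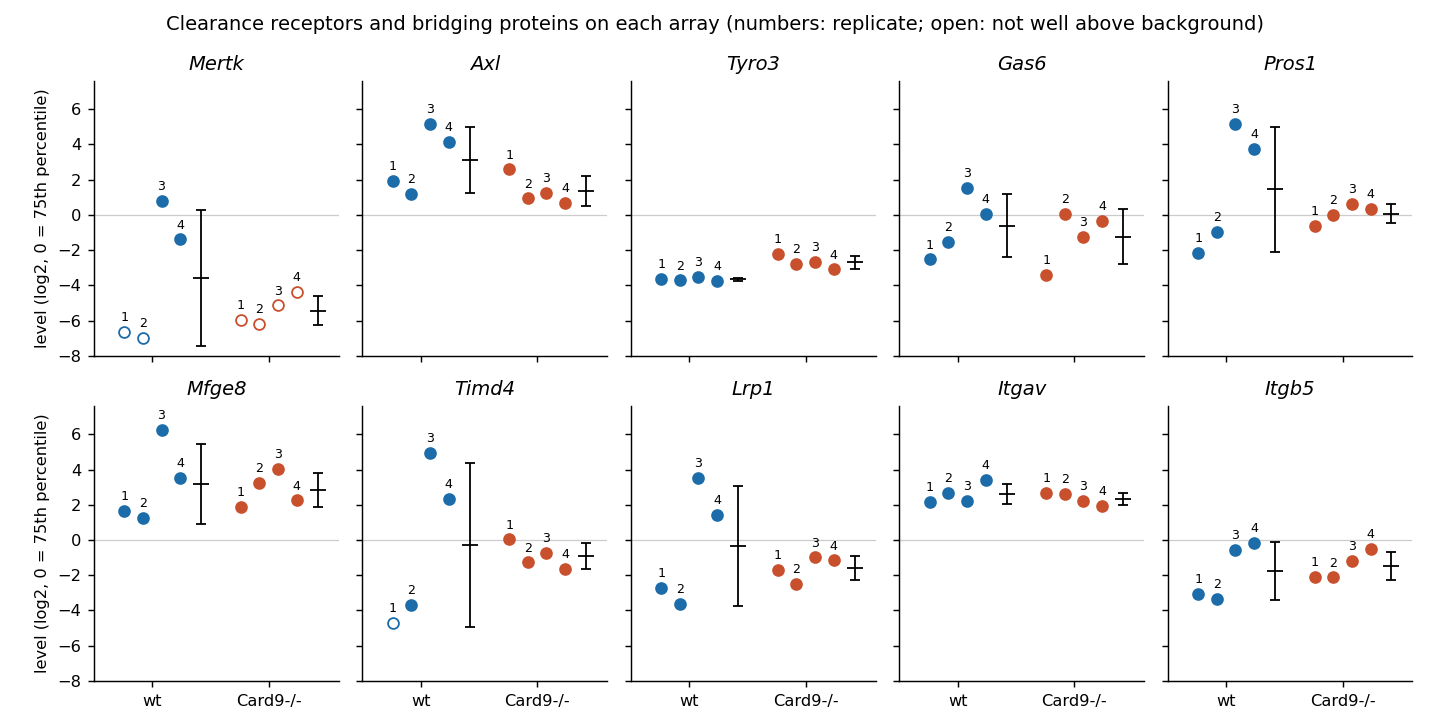
Level (log2, 0 = 75th percentile of the array) of each of the 10 genes on every array, with wt in blue and Card9-/- in orange. Numbers give the replicate, open circles mark spots not well above background, and the black bar is the mean ± SD of 4 arrays. In 4 of the 9 tested genes wt 3 and wt 4 are the 2 highest arrays, while the wt and Card9-/- values of Tyro3 do not overlap.

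Timd4, the direct phosphatidylserine receptor of resident macrophages, lay at -4.72 in the library labelled wt 1, -3.68 in wt 2, 4.93 in wt 3 and 2.31 in wt 4, and at 0.04, -1.27, -0.76 and -1.62 in the Card9-/- arrays. All Card9-/- arrays fell between the 2 low and the 2 high wt arrays. The signal was not well above background in the library labelled wt 1 and was so on the other 7 arrays. The wt 3 array was 390-fold above wt 2 and at least 686-fold above the lowest signal well above background in the library labelled wt 1, while the Card9-/- arrays spanned 3.15-fold. The wt mean was -0.29 ± 4.66 (SD, n = 4) and the Card9-/- mean -0.90 ± 0.72 (SD, n = 4), a log2 difference of -0.61 (95% interval -4.90 to 3.68, limma adjusted p = 0.973; exact two-sided permutation p = 0.83). An interval this wide does not show that the genotypes have like levels.

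Mertk, the receptor tyrosine kinase that binds Gas6 and protein S on macrophages, was measured on 2 arrays alone. It stood at 0.77 in wt 3 and -1.39 in wt 4, and was not well above background in the library labelled wt 1 (-6.66), in wt 2 (-6.98) or on any Card9-/- array (-5.97, -6.21, -5.14 and -4.39). The processed signals were 649 and 340 in wt 3 and wt 4, and 3.5 to 9.3 on the other 6 arrays. The wt mean was -3.56 ± 3.86 (SD, n = 4) and the Card9-/- mean -5.43 ± 0.83 (SD, n = 4), with an exact two-sided permutation p of 0.429. A bound on the means put Card9-/- at least 1.13-fold lower, although wt 1 and wt 2 read below every Card9-/- array. That bound takes, for each Card9-/- array, the higher of its lowest signal well above background and the probe's own. The wt readings, background ones included, are taken as they stood. Without wt 3 or without wt 4 there was no such bound.

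Axl, the related kinase that binds Gas6, lay at 1.94 in the library labelled wt 1, 1.19 in wt 2, 5.17 in wt 3 and 4.16 in wt 4, against 2.58, 0.94, 1.24 and 0.66 in Card9-/-. The wt 3 and wt 4 arrays were above all others, and the 2 remaining wt arrays lay within the Card9-/- range. The means of 3.12 ± 1.86 (SD, n = 4) and 1.35 ± 0.85 (SD, n = 4) differed by -1.76 (95% interval -3.72 to 0.19, limma adjusted p = 0.727; exact two-sided permutation p = 0.200). A second Axl probe, well above background in 2 of 4 wt and 0 of 4 Card9-/- arrays, gave a difference of -1.75.

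Tyro3, the remaining kinase of the family, spread little within each group. Its levels were -3.64 in the library labelled wt 1, -3.72 in wt 2, -3.53 in wt 3 and -3.75 in wt 4, and -2.22, -2.80, -2.67 and -3.09 in Card9-/-. Every Card9-/- array was above every wt array, as for 1.53% of all genes, and 99.1% of genes had a larger wt SD. The means of -3.66 ± 0.10 (SD, n = 4) and -2.70 ± 0.36 (SD, n = 4) differed by 0.96 (SE 0.33, 95% interval 0.23 to 1.70). The exact two-sided permutation p was 0.0286, the smallest that 4 against 4 arrays allow, and the limma p of 0.0158 became 0.574 after adjustment over all genes. Within the slide shared by both genotypes, where Card9-/- is replicate 4 alone, the difference was 0.57. The signals were dim, between 22.8 and 76.2 on all 8 arrays, and the lowest level that counted as well above background was -4.84 to -4.31 on the wt arrays and -4.17 to -3.47 on the Card9-/- arrays. The part of this unequal floor in the result was not tested. A second Tyro3 probe was well above background on 0 wt and 1 Card9-/- array and gave 0.68.

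Lrp1, the large endocytic receptor, lay at -2.70 in the library labelled wt 1, -3.62 in wt 2, 3.54 in wt 3 and 1.41 in wt 4, and at -1.69, -2.51, -0.99 and -1.16 in Card9-/-. As with Timd4, all Card9-/- arrays lay between the low and the high pair of wt arrays. The wt mean was -0.34 ± 3.39 (SD, n = 4) and the Card9-/- mean -1.59 ± 0.68 (SD, n = 4), a difference of -1.24 (95% interval -4.42 to 1.93, limma adjusted p = 0.893; exact two-sided permutation p = 0.514). The wt arrays spanned 143-fold. The other 2 Lrp1 probes did not pass the filter on dim probes and disagreed in sign, with differences of 0.32 and -0.86.

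Among the bridging proteins, Pros1 had the levels -2.17 in the library labelled wt 1, -0.99 in wt 2, 5.18 in wt 3 and 3.75 in wt 4, against -0.64, -0.01, 0.61 and 0.32 in Card9-/-. The Card9-/- arrays again lay between the 2 pairs of wt arrays, which spanned 163-fold. The means of 1.44 ± 3.57 (SD, n = 4) and 0.07 ± 0.54 (SD, n = 4) differed by -1.37 (95% interval -4.68 to 1.94, limma adjusted p = 0.890; exact two-sided permutation p = 0.457). A second probe that passed the filter gave -0.94, and the remaining probe, annotated to an Ensembl transcript, was not well above background on any array.

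Gas6, the bridging ligand of all 3 kinases, lay at -2.53 in the library labelled wt 1, -1.54 in wt 2, 1.54 in wt 3 and 0.05 in wt 4, and at -3.42, 0.06, -1.24 and -0.35 in Card9-/-. Both groups spread widely and overlapped. The wt mean was -0.62 ± 1.79 (SD, n = 4) and the Card9-/- mean -1.24 ± 1.55 (SD, n = 4), a difference of -0.62 (95% interval -2.85 to 1.61, limma adjusted p = 0.931; exact two-sided permutation p = 0.629).

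Mfge8, the milk fat globule protein that bridges to integrins, lay at 1.67 in the library labelled wt 1, 1.23 in wt 2, 6.24 in wt 3 and 3.54 in wt 4, and at 1.88, 3.25, 4.02 and 2.25 in Card9-/-. The wt 3 array was the highest of the 8, and wt 4 lay within the Card9-/- range. The means of 3.17 ± 2.28 (SD, n = 4) and 2.85 ± 0.97 (SD, n = 4) differed by -0.32 (95% interval -2.64 to 2.00, limma adjusted p = 0.974; exact two-sided permutation p = 0.886).

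The integrin alpha chain Itgav was the steadiest of the genes whose groups overlapped. It lay at 2.17 in the library labelled wt 1, 2.66 in wt 2, 2.21 in wt 3 and 3.40 in wt 4, and at 2.66, 2.59, 2.23 and 1.93 in Card9-/-. The means of 2.61 ± 0.57 (SD, n = 4) and 2.35 ± 0.34 (SD, n = 4) differed by -0.26 (95% interval -1.14 to 0.63, limma adjusted p = 0.928; exact two-sided permutation p = 0.543). The 3 other Itgav probes, all annotated to Ensembl transcripts, gave 0.45, -0.84 and 0.31, so the probes disagreed in sign.

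Its partner chain Itgb5 lay at -3.05 in the library labelled wt 1, -3.35 in wt 2, -0.55 in wt 3 and -0.19 in wt 4, and at -2.08, -2.13, -1.17 and -0.51 in Card9-/-. The 2 low wt arrays were below all Card9-/- arrays. The wt mean was -1.78 ± 1.65 (SD, n = 4) and the Card9-/- mean -1.47 ± 0.78 (SD, n = 4), a difference of 0.31 (95% interval -1.45 to 2.08, limma adjusted p = 0.964; exact two-sided permutation p = 0.714).

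The arrays therefore took a similar order in much of the set, which was noticed after the values were seen and is given as a description. The wt 3 and wt 4 arrays were the 2 highest of the 8 in 4 of the 9 tested genes, as in 14.5% of all genes, and the libraries labelled wt 1 and wt 2 the 2 lowest in 5 of the 9, as in 9.91%. In 3 of the 9, Timd4, Pros1 and Lrp1, every Card9-/- array lay between those pairs, as in 3.87% of all genes. The distance from the higher of the 2 low wt arrays to the lower of the 2 high ones was 5.99 for Timd4, 4.73 for Pros1 and 4.12 for Lrp1 on the log2 scale, and a wider distance was seen in 0.167%, 0.5% and 0.892% of all genes. Over all genes tested the library labelled wt 1 and wt 2 were the most alike of all pairs of arrays, with an SD of their difference of 0.526 against 0.763 for the next pair. With the 2 averaged to 1 sample the difference was -1.91 for Timd4, -2.38 for Pros1, -2.18 for Lrp1, -1.09 for Gas6 and -0.89 for Mfge8, and 0 of 9 genes passed (limma, smallest adjusted p = 0.763).

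The sign of the genotype difference in most of the set rested on these arrays. Without wt 3 and wt 4, 7 of the 9 tested genes were higher in Card9-/- (45.2% of all genes), with differences of 3.30 for Timd4, 1.73 for Itgb5, 1.65 for Pros1, 1.57 for Lrp1 and 1.40 for Mfge8, and 0 passed the adjusted threshold (limma, smallest adjusted p = 0.183). At an unadjusted p below 0.05, 5 of the 9 were higher, against 7.3% of all genes. Without the library labelled wt 1 and without wt 2, 8 of the 9 were lower (44.1% of all genes were higher), and Axl, Pros1, Timd4 and Lrp1 passed with differences of -3.32, -4.39, -4.52 and -4.06 (limma adjusted p = 0.0422, 0.0224, 0.0353 and 0.0353), beside 1.58% of all genes that passed as lower. Tyro3 was at 0.98 in the first case and 0.94 in the second. Axl was at -0.21 in the first case, against -1.76 over all arrays, and Itgav at -0.06 and -0.45. Mertk has no value in the first case, since none of the remaining arrays was well above background. These pairs of arrays were picked for their values, so the p-values without them do not test the genotype.

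**Figure D2:**
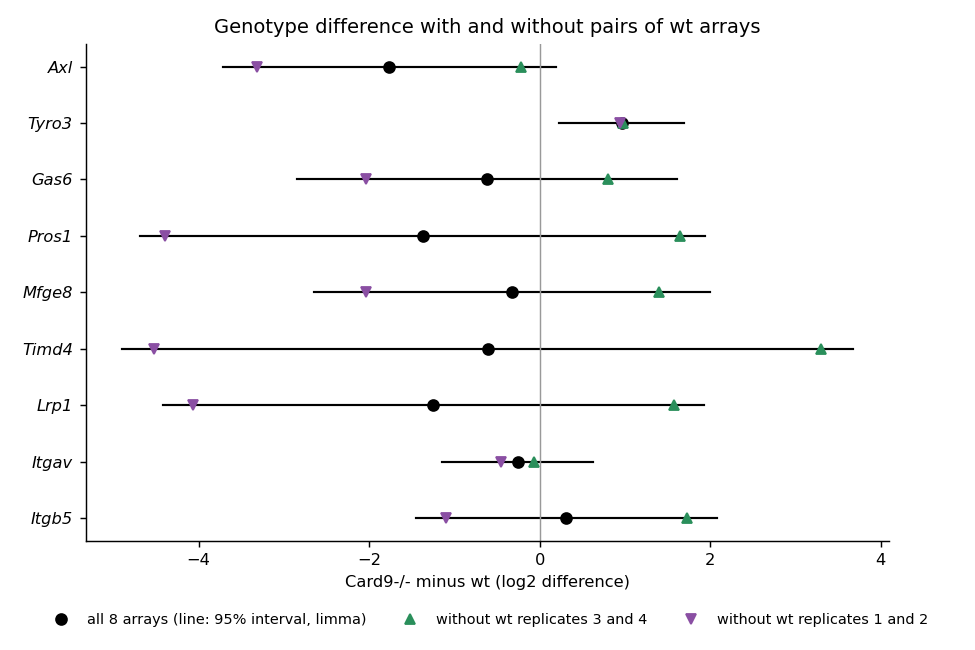
Card9-/- minus wt difference of each of the 9 tested genes on the log2 scale over all 8 arrays (black circles, with the 95% interval of limma), without wt 3 and wt 4 (green triangles) and without the library labelled wt 1 and wt 2 (purple triangles). Timd4 moves from -4.52 to 3.30 between the last 2 choices, while Tyro3 stays between 0.94 and 0.98.

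Markers of the cells moved with the same arrays. The mean level of 10 macrophage markers (Adgre1, Csf1r, Cd68 and others) was 0.45 in the library labelled wt 1, 0.57 in wt 2, 5.44 in wt 3 and 4.36 in wt 4, and 1.68 to 2.09 in Card9-/-. All 10 were well above background in wt 3 and wt 4, while Fcgr1 was not in the libraries labelled wt 1 and wt 2. Of 12 markers of resident peritoneal macrophages 11 were tested, and their mean was -2.17, -1.99, 5.70 and 3.07 in the wt arrays in order and -2.22 to 0.02 in Card9-/-. Gata6, the transcription factor that defines those cells, was well above background on wt 3, wt 4 and Card9-/- replicate 2. The part of the cell makeup in the clearance gene values was not tested. Set relative to the mean of the macrophage markers, in place of the 75th percentile, every gene's difference lost that list's own difference of -0.83 alike, and the median of all genes moved to 0.74. On that scale Axl was at -0.93, Pros1 at -0.54 and Lrp1 at -0.42, while Timd4 was at 0.22, Gas6 at 0.21, Mfge8 at 0.51, Itgav at 0.57, Itgb5 at 1.14 and Tyro3 at 1.79, and 0 of 9 genes had an unadjusted p below 0.05 (limma).

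The wt 3 and wt 4 arrays were also above the libraries labelled wt 1 and wt 2 in the monocyte, fibroblast, mesothelial, mast cell, dendritic cell and fat cell lists, not in the T cell, B cell, neutrophil or natural killer cell lists. The 8 markers of monocytes and small peritoneal macrophages averaged 2.48 to 4.66 in wt and 3.45 to 4.08 in Card9-/-, and 11 neutrophil markers averaged 0.78 to 3.37 and -0.51 to 3.15. T cell markers (11 of 12 tested) averaged 0.68 to 1.11 in wt and 1.66 to 2.91 in Card9-/-, and natural killer cell markers (9 of 10) -1.04 to -0.12 and 0.44 to 2.92, without overlap of the groups, as for Tyro3. Their part in the Tyro3 difference was not tested. Fibroblast markers (5 of 8) averaged -1.39 to 1.98 in wt and 0.06 to 1.83 in Card9-/-, with Pdgfra and Pdgfrb well above background on 0 arrays.

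**Figure D3:**
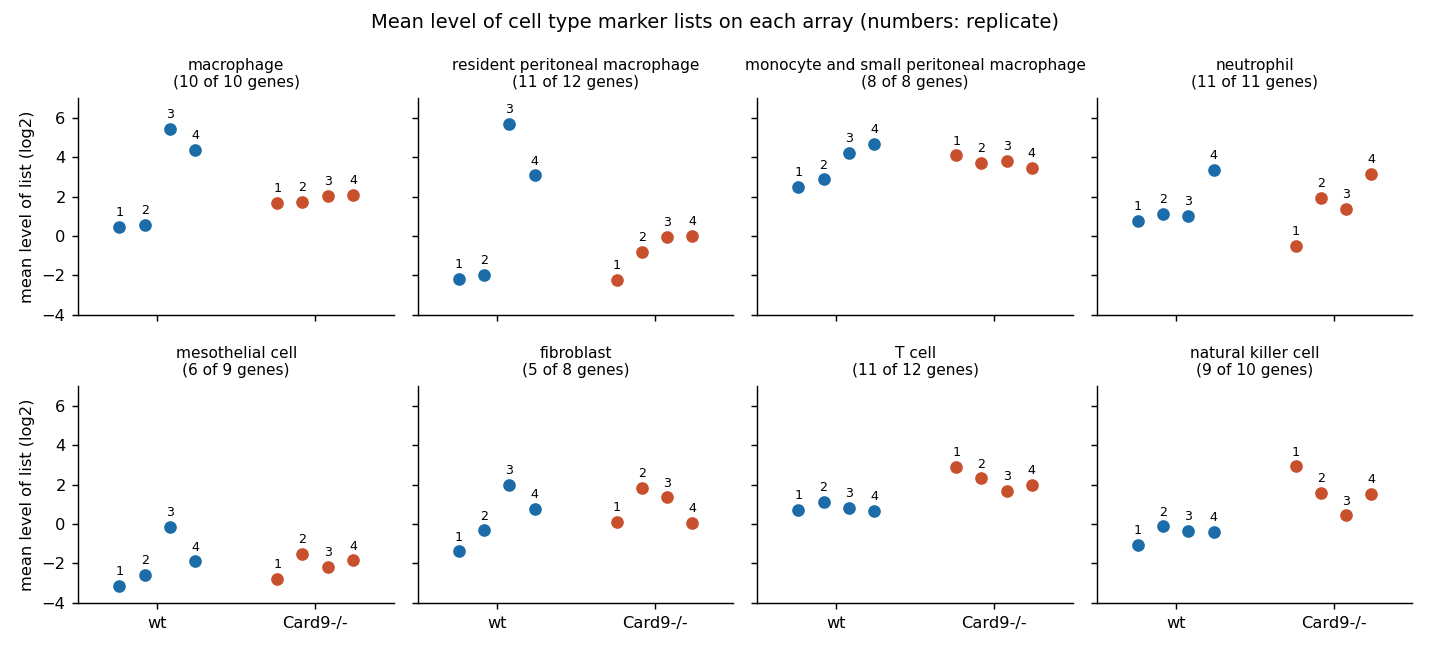
Mean level (log2) of 8 cell type marker lists on each array, with wt in blue, Card9-/- in orange and the replicate number above each point. In the macrophage list the library labelled wt 1 and wt 2 lie at 0.45 and 0.57 and wt 3 and wt 4 at 5.44 and 4.36. The T cell and natural killer cell lists lie higher on all Card9-/- arrays.

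The genes whose levels followed Timd4, Mertk and Mfge8 most closely were sought among 13874 genes with a symbol, by the root mean square difference over the 8 arrays after each gene's mean was subtracted. For Timd4 they were Clec10a, a galactose-binding lectin of macrophages (0.419), and the complement genes C1qc (0.487) and C1qa (0.505). For Mertk they were Ltc4s, which makes leukotriene C4 (0.375), Fam20c, a secretory pathway kinase (0.442) and Cd93 (0.461), a match that includes the background readings of Mertk on 6 of the 8 arrays. For Mfge8 they were Slc16a7 (0.269), Slc22a17 (0.314) and Tiam2 (0.326), and its closest relative in the set was Gas6 at rank 916. These are descriptions of 8 shared libraries.

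Of 62 further genes of dying cell clearance, 59 were tested. None passed the adjusted threshold, 17 were higher and 42 lower, and their median difference was -0.38 against -0.09 for all genes. At an unadjusted p below 0.05 (limma), 2 were higher, Cx3cr1 and Itgb3 (2.63% of all genes), and 5 lower, Scarb1, Scarf1, Abi1, Dnase2a and Adam17 (4.59% of all genes), with adjusted p between 0.534 and 0.617. Of these, Scarf1 was well above background on 3 arrays alone, wt 2, wt 3 and wt 4. Its Card9-/- levels, -5.58 to -4.34, were below the lowest level that counted as well above background on each array. The Scarf1 difference of -2.44 thus includes background readings on every Card9-/- array and in the library labelled wt 1 (-4.80). As in the set of 10, wt 3 and wt 4 were the 2 highest arrays in 31 of the 59. The median difference was 0.57 without wt 3 and wt 4 and -0.99 without the library labelled wt 1 and wt 2.

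Cx3cr1, the receptor for the find-me chemokine fractalkine, lay at -4.32 in the library labelled wt 1, -4.18 in wt 2, -2.80 in wt 3 and -5.70 in wt 4, and at -1.84, -2.12, -2.54 and -2.62 in Card9-/-. The groups did not overlap, and the difference was 1.97 (SE 0.57, limma adjusted p = 0.534), which includes a wt 4 reading that was not well above background. Natural killer cells also express this receptor, and their marker list was higher on the Card9-/- arrays, as given above. Its part in the Cx3cr1 difference was not tested. Itgb3, the integrin beta chain that pairs with Itgav, lay at 2.18, 2.01, 2.39 and 1.99 in wt in the same order and at 3.87, 3.08, 2.90 and 2.81 in Card9-/-, a difference of 1.03 (SE 0.36, limma adjusted p = 0.590).

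Dnase2a, the lysosomal nuclease that digests the DNA of engulfed cells, lay at 3.68 in the library labelled wt 1, 3.84 in wt 2, 3.52 in wt 3 and 3.29 in wt 4, and at 0.06, 2.52, 0.21 and 3.17 in Card9-/-. The wt arrays differed little, and Card9-/- replicates 1 and 3, which shared a slide, were far below the others. The difference was -2.10 (SE 0.71, limma adjusted p = 0.573). Adam17, the protease that sheds Mertk from the cell surface, lay at 1.84, 1.84, 2.33 and 2.00 in wt and at 0.85, 1.06, 1.25 and 1.48 in Card9-/-, a difference of -0.84 (SE 0.32, limma adjusted p = 0.617). Abi1, a subunit of the complex that drives actin assembly, lay at 2.93 to 3.53 in wt and 2.18 to 2.68 in Card9-/-, a difference of -0.87 (limma adjusted p = 0.614).

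In the roles with no gene at an unadjusted p below 0.05, the smallest p belonged to Cd300lb among the other phosphatidylserine receptors (well above background on 5 of 8 arrays, difference -1.32, limma adjusted p = 0.868), to Calr among the other bridging proteins (-0.42, limma adjusted p = 0.905) and to the nuclear receptor Pparg (on 7 of 8 arrays, 1.62, limma adjusted p = 0.815). Scarb1, a scavenger receptor that was chosen here for its non-overlapping groups, lay at -0.18 to 1.70 in wt and -0.83 to -0.56 in Card9-/-, a difference of -1.30 (limma adjusted p = 0.590). In all, 2 of the 59 genes were higher on every Card9-/- array (1.53% of all genes) and 4 lower (3.69%).

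**Figure D4:**
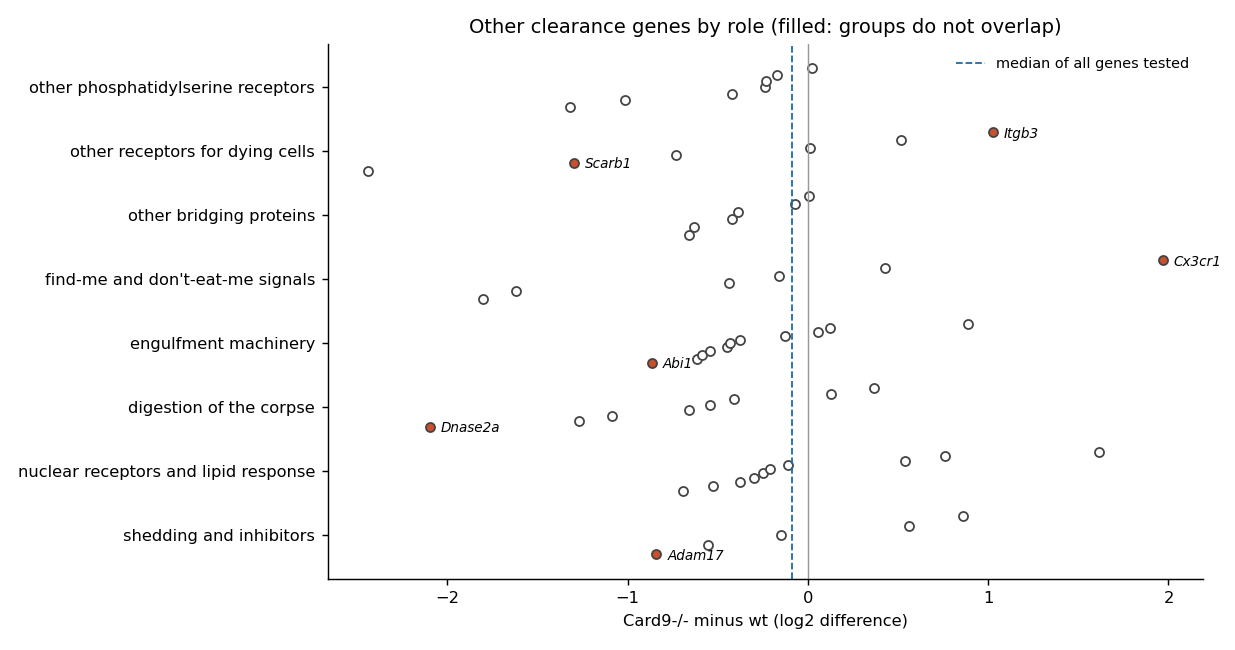
Card9-/- minus wt difference (log2) of 59 further clearance genes by role, 1 circle per gene, with the median of all genes tested (-0.09) as a dashed line. Filled circles mark the 6 genes whose groups do not overlap, Cx3cr1 and Itgb3 to the right and Scarb1, Abi1, Dnase2a and Adam17 to the left.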

How the data were processed

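RNA was measured on 8 one-colour Agilent arrays. The authors deposited scanner files holding intensity values that Agilent Feature Extraction 10.7.1.1 made, per the file headers, with background subtraction and no scaling between arrays. A deposited series matrix holds log2 values, used only as an alternative in its 49670 of 56745 rows that carried their own probe. Its columns matched best a scanner file of their own genotype (8 of 8) but of their own replicate number in 2 of 8, so the sources number the replicates differently; the numbers here are those of the scanner files. Its further steps are not given in the sources used here.

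Control spots were removed (59305 spots of 56605 probes remained), and log2 signals were set to the 75th percentile of each array. Probes well above background on 3 of 4 arrays of either group were kept (28166), and the brightest stood for each gene (18603 genes, 5 past the threshold). Tests were two-sided with limma 3.58.1 in R 4.3.3, adjusted by Benjamini-Hochberg at 0.05 over all genes. Exact permutation tests used all 70 assignments of arrays, unadjusted. The 12 member probes that passed and the 7 that did not were all read. No spot was saturated, and the number of arrays limits the precision. The fit was tested on simulated data with independent noise of equal spread in both groups. That test does not cover the wider wt spread of this set or the likeness of wt 1 and wt 2. Motifs were counted in RefSeq promoters. Named beyond the members were, per role, the clearance gene with the smallest p, and the 3 closest genes to Mertk, Timd4 and Mfge8; Cx3cr1, Itgb3, Abi1, Dnase2a and Adam17 fall under this rule, while Scarb1 and Scarf1 were named after their values were seen. The members and lists were chosen with earlier results of these data known. Alternatives covered scaling, background, filter, probes, slide, pairing, weights and omitted arrays. Both omitted pairs of wt arrays were picked for their values, and omitting wt replicates 1 and 2 was added after seeing the data.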

Additional observations from a re-analysis of the deposited data

How the results depend on the processing

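Over all genes, 5 passed the threshold. The count was 0 for probes well above background on all 8 arrays (limma, 1062 at an unadjusted p below 0.05), 0 with slide as a block (1660) and 0 within slide 1 (1637), where Card9-/- was 1 array assumed to vary like the others. It was 804 with array weights, which ranged from 0.177 for wt 3 to 10.1 for wt 2, and 430 without wt 1 and 2, a choice made after seeing the data. Of the members, 0 passed, 1 with array weights (Tyro3, 1.01, adjusted p = 0.042) and 4 without wt 1 and 2. Of the other clearance genes, 0, 4 and 7 did. The replicate numbers, which differ between the scanner files and the series matrix, did not pair the samples (correlations of same-numbered deviations -0.13, 0.25, -0.12 and -0.28). With the replicate block 3 genes and 0 members passed.

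Several member differences changed sign, and the cause was not tested. With array weights Gas6 was at 0.74, Pros1 at 1.17, Mfge8 at 1.73, Timd4 at 2.72 and Lrp1 at 1.36. Without wt 3 and 4 they were at 0.80, 1.65, 1.40, 3.30 and 1.57. Relative to the macrophage markers, which adds the same amount to every gene, Gas6 was at 0.21, Mfge8 at 0.51, Timd4 at 0.22 and Itgav at 0.57. Gas6 was at 0.27 both with slide as a block and within slide 1. Mfge8 was at 0.019 with quantile normalization and 0.0062 in the series matrix. Itgav was at 0.17 as the mean of its probes. Other probes gave 0.44 for Pros1 and 0.32 for Lrp1, but these were well above background on 0 and 1 of the 8 arrays, so both compare background readings. Other Itgav probes, well above background on 7 and 8 arrays, gave 0.45 and 0.31. Itgb5 was at -0.16 with wt 1 and 2 averaged and -1.10 without them.

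Leaving out 1 array at a time gave 5 to 6 genes, and 0 to 0 members and other clearance genes. The bound on the Mertk fold ranged from 1.02 to 2.49, and was under 1, giving none, without wt 3 or without wt 4. Other alternatives are not given for Mertk, which is not well above background on 6 arrays. Differences ranged from -2.41 to -1.08 for Axl, 0.80 to 1.09 for Tyro3, -1.25 to 0.11 for Gas6, -2.58 to -0.13 for Pros1, -0.97 to 0.70 for Mfge8, -2.09 to 1.13 for Timd4, -2.34 to 0.049 for Lrp1, -0.40 to 0.0097 for Itgav and -0.21 to 0.85 for Itgb5. Scaling by the array median moved the median of all genes to -0.26. Low signal limits Mertk, the Tyro3 probes and the second probes of Axl and Lrp1.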
